A study of Mus musculus with 4 samples.

Results

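The genes described here encode the thiol-based and enzymatic antioxidant defences: glutathione transferases and peroxidases, peroxiredoxins, thioredoxins, superoxide dismutases, catalase, the enzymes that make and recycle glutathione, and the NRF2 regulator with its classical targets. They were chosen by gene symbol and numbered 58 of the 55401 genes in the table. RNA-seq had been performed on hair follicle stem cells of C57BL/6 mice in anagen, when follicles are growing. One group had been fed a high-fat diet for 4 months and the other a normal diet, whose length is not stated, with 2 libraries per diet and no other allele or agent named for either. The sources used here do not give the age or sex of the animals, how the cells were isolated or whether libraries came from different animals, so p-values reflect spread among libraries that could be purely technical.

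Glutathione is a small thiol that cells build from glutamate, cysteine and glycine. Peroxidases use it to reduce peroxides, transferases attach it to reactive or fatty electrophiles, and a reductase regenerates it with NADPH. Peroxiredoxins and thioredoxins form a parallel thiol chain. The transcription factor NRF2 (gene Nfe2l2) is held at low levels by KEAP1 until oxidants or electrophiles modify KEAP1. It then binds antioxidant response elements and raises transcription of many of these enzymes, and in skin the pathway is known for protecting keratinocytes against ultraviolet light and reactive chemicals.

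The antioxidant response element links the regulator to the enzymes, so its core was searched in the promoters of the members. RefSeq promoter windows on build GRCm38.p6, running from 250 bases before to 50 bases after each transcription start, were found for 51 of the 58 genes by symbol. The searched core was TGACNNNGC, or GCNNNGTCA when it lies on the other strand. It occurred in at least 1 window of 10 of these 51 genes (19.6%), against 14% of all 27025 genes with a window. A gene can have several windows, and counted by window the shares were 14.9% of 67 and 12.4% of 32851. The sites of 5 genes are shown because they belong to the regulator itself, to the pair of members with the smallest p-values, to the most abundant peroxiredoxin and to a subunit of the rate-limiting enzyme of glutathione synthesis. Each is 29 bases long on the strand of the gene, with the core in capitals.
Srxn1: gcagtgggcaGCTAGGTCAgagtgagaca
Txnrd1: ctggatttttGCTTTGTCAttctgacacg
Gclm: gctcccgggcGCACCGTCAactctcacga
Prdx1: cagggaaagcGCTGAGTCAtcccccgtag
Nfe2l2: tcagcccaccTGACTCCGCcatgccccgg

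These stretches lie at chr2:152105542-152105570 (Srxn1), chr10:82859104-82859132 (Txnrd1), chr3:122245413-122245441 (Gclm), chr4:116685456-116685484 (Prdx1) and chr2:75704885-75704913 (Nfe2l2, a gene on the minus strand). The Srxn1 match starts at base 29 counted from the RefSeq transcription start of its window, with the start base as the first. That start is not the same as the gene start given for Srxn1 below. The Txnrd1 match lies before an internal alternative start, and so within the span of the gene. Those of Gclm, Prdx1 and Nfe2l2 lie upstream of the gene. The Prdx1 match also contains the AP-1 site TGACTCA on its other strand. A match describes the letters only. The 10 genes with a match had log2 fold changes (high-fat minus normal diet) between -0.43 and 1.03 with a median of 0.17, and 6 of them were positive. The 32 tested genes with windows but no match had a median of 0.07, with 20 positive. Genes on both sides of 0 thus occurred with and without the core.

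The libraries held between 8590570 and 9940848 counts, and the members together took between 0.166% and 0.186% of them. Levels are given as CPM, in which each library's count is divided by its TMM-corrected total and set to a common depth, for comparisons of a gene between libraries, and as FPKM, scaled also by exonic length, for comparisons between genes. A floor of 3 counts corresponded to between 0.291 and 0.359 CPM, and it covers counting error only. All 12 bulge stem cell markers examined were present in every library, with Krt15 between 1996 and 3012 CPM and Cd34 between 64.9 and 81.1 CPM. Adipocyte markers (Adipoq, Plin1, Lep) were at 0 in every library, and the sum of 5 red blood cell markers stayed at or under 1.07 CPM. With the normal diet first, 6 fibroblast markers summed to 44.97 and 56.53 against 80.67 and 64.7 CPM. The sums were 8.16 and 11.2 against 14.99 and 19.61 CPM for 3 endothelial markers. For 6 melanocyte markers they were 48.17 and 28.05 against 36.53 and 29.42 CPM. Sebaceous gland markers (10 genes) summed to 598.5 and 522.3 against 491 and 502.7 CPM, mostly from Scd1 and Fasn. None of those tested in these 4 lists was called (edgeR). Markers of suprabasal epidermis were also present, and their sum over 9 genes was 1342 and 3031 CPM for the normal diet against 4120 and 5078 CPM for the high-fat diet. Of these 9 genes, 3 were called higher, 1 was called lower and none was at 0. Over all genes tested, 1.12% were called higher and 0.228% lower (edgeR, adjusted p under 0.05). Flg was lower in both high-fat diet libraries, at 55.2 and 207 against 20.1 and 34.2 CPM. Lor and Calml3 overlapped between the diets, and the other suprabasal markers were higher in both high-fat diet libraries. Of 7 upper follicle markers, 4 were called higher (Krt79, Cst6, Defb6 and Gata6), with sums of 4194 and 3297 CPM against 3910 and 3420 CPM. Lrig1 was lower in both high-fat diet libraries, and Plet1 and Krt17 overlapped between the diets. Of the 12 bulge markers 1 was called higher (Krt14) and 0 lower. Krt5, Krt14, Krt15, Itga6 and Col17a1 were higher in both high-fat diet libraries, such as Col17a1 at 2223 and 2823 against 3540 and 3399 CPM. Cd34, Lgr5, Lhx2, Sox9, Nfatc1 and Tbx1 were lower in both, such as Lhx2 at 496 and 445.7 against 339.7 and 329 CPM. Tcf7l1 overlapped between the diets. Sums for 5 cycling cell markers, of which 0 were called and none was at 0 (edgeR), were 3469 and 2316 CPM against 2051 and 2246 CPM. In whole populations of cells such as these, fewer cells of a type and less RNA per cell cannot be told apart.

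Of the 58 genes, 49 were expressed enough to be tested, by a filter that a gene could pass through the libraries of 1 diet alone. None of the 49 was called between the diets (edgeR quasi-likelihood test, adjusted p under 0.05), against 1.35% of all 14479 genes tested. At an unadjusted p under 0.05 there were 3 of 49 (6.12%), against 13.3% of all genes tested. These were Srxn1, Txnrd1 and Hmox2, and the smallest adjusted p among the members was 0.251. DESeq2 called 0 of the 49 members to which it gave an adjusted p (background 2.33%). With DESeq2, 3 of 55 members had an unadjusted p under 0.05 (background 6.69%). Limma called 0 of 42 members, but it called only 1 of 13026 genes in all (0.00768%), so its count carries no information on the members. At an unadjusted p under 0.05 limma had 6 of 42 members (background 13.8%). Of the 49 members, 30 had a log2 fold change above 0 (background 50.1%). The median log2 fold change was 0.08 over the members and 0.00 over all genes tested, and the median absolute change was 0.21 against 0.26. Among 24 of 49 members (49.0%) both libraries of 1 diet lay above both of the other, against 44.6% of all genes tested. Of these 24, 15 were higher (30.6% of the members, background 22.7%) and 9 lower (18.4%, background 21.9%) with the high-fat diet.

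The precision of these comparisons differed with the level of the gene. For 32 of 49 members (65.3%) the 95% confidence interval of the change lay within 2-fold either way, against 56.3% of all genes tested. For 17 of them (34.7%) it lay within 1.5-fold, against 25.1%. All 25 members with a mean of at least 20 CPM were among the 32, and their log2 fold changes did not exceed 0.46 in size. Of all 7125 genes tested at that level, 91.8% also had intervals within 2-fold. The 11 members with a mean under 5 CPM had wide intervals. Intervals of Srxn1, Txnrd2, Gstk1, Gstm4, Gstt3 and Mgst1, at higher means, also reached beyond 2-fold. Differences of 2-fold in any of these genes could be missed at this depth with 2 libraries per diet.

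**Figure D1:**
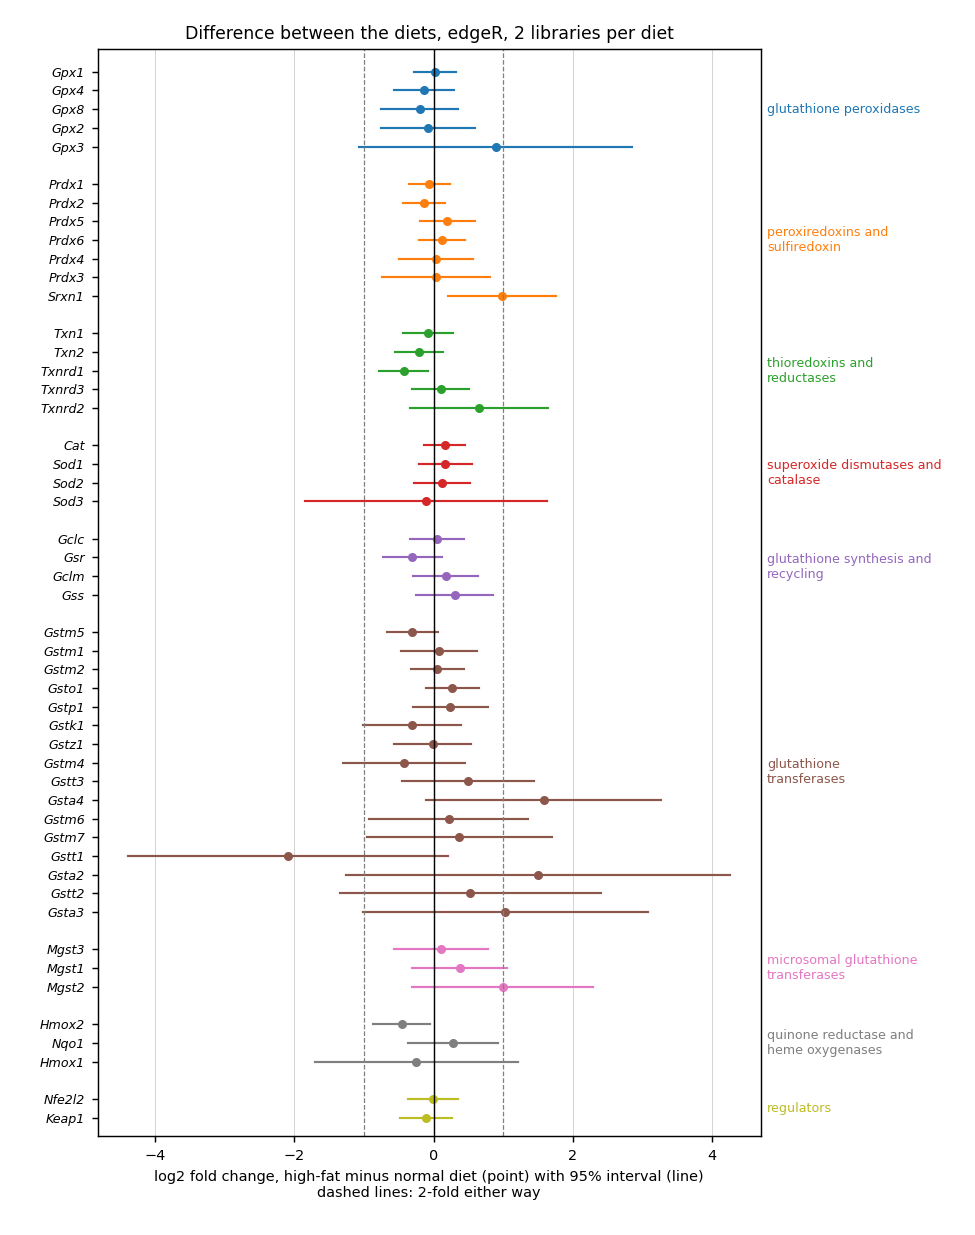
Log2 fold change (high-fat minus normal diet) of each tested antioxidant gene with its 95% confidence interval, grouped by class and ordered within a class by mean FPKM. Intervals are narrow for abundant genes such as Gpx1 and Prdx1 and wide for low genes such as Gstt1 and Gsta2; those of Srxn1, Txnrd1 and Hmox2 do not cross 0 before adjustment over all genes.

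**Figure D2:**
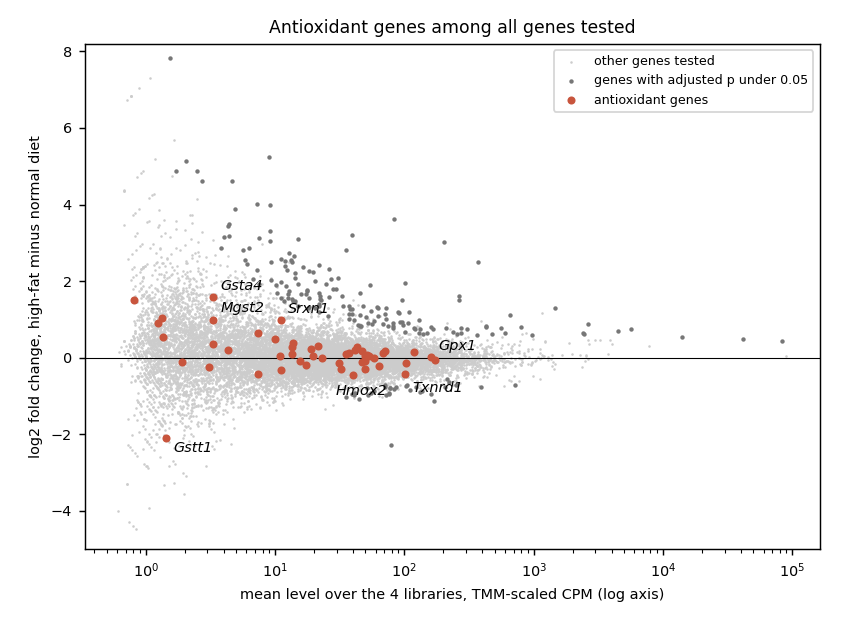
Log2 fold change against mean level (log axis) for all 14479 genes tested, with the 49 antioxidant genes in red and the 195 called genes in dark grey. The red points lie within the light grey cloud of uncalled genes, and those furthest from 0 (Gstt1 and Gsta4) are low in level.

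In the values below, those of the normal diet libraries come first and those of the high-fat diet libraries second, replicate 1 before replicate 2. The regulators had intervals within 1.5-fold either way. Nfe2l2 (chromosome 2, positions 75675513 to 75704641, minus strand), the gene of NRF2, stood at 63.7 and 53.7 CPM (normal diet) against 59.97 and 56.9 CPM (high-fat diet). The high-fat diet values fell between those of the normal diet. The log2 fold change of Nfe2l2 was -0.0069 ± 0.16 (SE), with a 95% interval from -0.36 to 0.35. Keap1, which encodes the adaptor that targets NRF2 for degradation, stood at 46.9 and 50.8 CPM against 47.5 and 43.2 CPM, also with overlap. The fitted value for Keap1 was -0.11 ± 0.17 (SE). NRF2 is regulated mainly at the level of its protein, which these data do not measure.

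Among the glutathione peroxidases, Gpx1 was the most abundant of all 58 members. This cytosolic selenoenzyme, which reduces hydrogen peroxide, had 105 and 121 FPKM against 114 and 101 FPKM. It alone made up 73.2% of the class's summed FPKM and ranked 267 among the 14479 genes tested. For Gpx1 the log2 fold change was 0.014 ± 0.14 (SE), with an interval from -0.29 to 0.32, and the diets overlapped. Gpx4, the enzyme that reduces lipid peroxides inside membranes and guards against ferroptosis, stood at 31.7 and 33.6 CPM against 29.2 and 30.0 CPM. Both high-fat diet values lay below both normal diet values, yet the log2 fold change of -0.14 ± 0.20 (SE) did not pass the test (edgeR adjusted p = 0.825). Gpx8, a peroxidase of the endoplasmic reticulum, had the same arrangement, with 19.04 and 18.2 CPM against 17.4 and 15.1 CPM (adjusted p = 0.801). Gpx2 and Gpx3 were lower in level, at 3.47 to 5.65 and 0.39 to 1.03 FPKM. Gpx5 had no count in any library, and Gpx6 and Gpx7 had at most 2 and 7 counts in any library.

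The peroxiredoxins are abundant peroxidases, most of which are reduced again by thioredoxin. Prdx1 led the class with 63.6 and 55.3 FPKM against 57.0 and 50.04 FPKM. Its diets overlapped in CPM, and its log2 fold change of -0.06 ± 0.14 (SE) had an interval from -0.36 to 0.23. Prdx2 stood at 112 and 106 CPM against 104 and 93.8 CPM (log2 fold change -0.14 ± 0.14, SE), without overlap. Prdx5, found in mitochondria, peroxisomes and cytosol, lay the other way, at 40.2 and 37.6 CPM against 41.5 and 47.7 CPM (log2 fold change 0.20 ± 0.18, SE). Adjusted p-values were 0.734 for Prdx2 and 0.70 for Prdx5 (edgeR). The log2 fold changes of Prdx3, Prdx4 and Prdx6 lay between 0.03 and 0.12.

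Srxn1 had the smallest p-value of the members. It encodes sulfiredoxin, which restores peroxiredoxins whose thiol has been overoxidized, and is a classical NRF2 target (chromosome 2, positions 152105516 to 152111376, plus strand). Its counts were 82 and 66 against 156 and 90, or 7.96 and 6.91 CPM against 18.6 and 10.8 CPM. Both high-fat diet libraries were above both normal diet libraries, and the first was well above the second. The log2 fold change was 0.98 ± 0.35 (SE), with an interval from 0.20 to 1.76, and it missed the threshold (edgeR adjusted p = 0.251). Without the first high-fat diet library it was 0.53. Among the peroxiredoxins, Prdx1 and Prdx2 had log2 fold changes below 0 (-0.06 and -0.14). Those of Prdx3, Prdx4, Prdx5 and Prdx6 were above 0 (0.04, 0.03, 0.20 and 0.12). The intervals of all these genes included 0, and Prdx1 ranged from -0.17 to 0.04 with a single library left out.

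Thioredoxins carry electrons from NADPH, through thioredoxin reductases, to peroxiredoxins and other proteins. Txn1, the cytosolic thioredoxin, was the most abundant of its class at 48.3 and 51.5 FPKM against 46.1 and 42.9 FPKM. Its CPM overlapped between the diets, with a log2 fold change of -0.08 ± 0.17 (SE). Txn2, its mitochondrial counterpart, stood at 64.1 and 72.2 CPM against 60.8 and 57.2 CPM, without overlap (log2 fold change -0.21 ± 0.16, SE; edgeR adjusted p = 0.632). Txnrd1, the cytosolic reductase and an NRF2 target (chromosome 10, positions 82833951 to 82897712, plus strand), stood at 130 and 101 CPM against 79.2 and 92.6 CPM. Both high-fat diet libraries were below both normal diet libraries. The log2 fold change was -0.43 ± 0.16 (SE), with an interval from -0.78 to -0.08, and it missed the threshold (edgeR adjusted p = 0.263). It was -0.24 without the first normal diet library, in which the cycling markers were also highest. Whether the share of cycling cells bears on this value was not tested. Txnrd3 and the mitochondrial Txnrd2 had positive values of 0.10 ± 0.19 and 0.64 ± 0.45 (SE), with overlapping diets. The classical targets Srxn1 and Txnrd1, which both hold the searched core, lay on opposite sides of 0, and neither was called. Gclc, Gclm and Nqo1, described below, had positive values of 0.04, 0.17 and 0.27, and Hmox1 had a negative value of -0.25.

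The glutathione peroxidases and thioredoxin reductases that carry selenocysteine (Gpx1 to Gpx4 and Txnrd1 to Txnrd3) depend on selenium for their synthesis. Their 7 log2 fold changes lay between -0.43 and 0.89 with a median of 0.01, and 4 were positive.

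**Figure D3:**
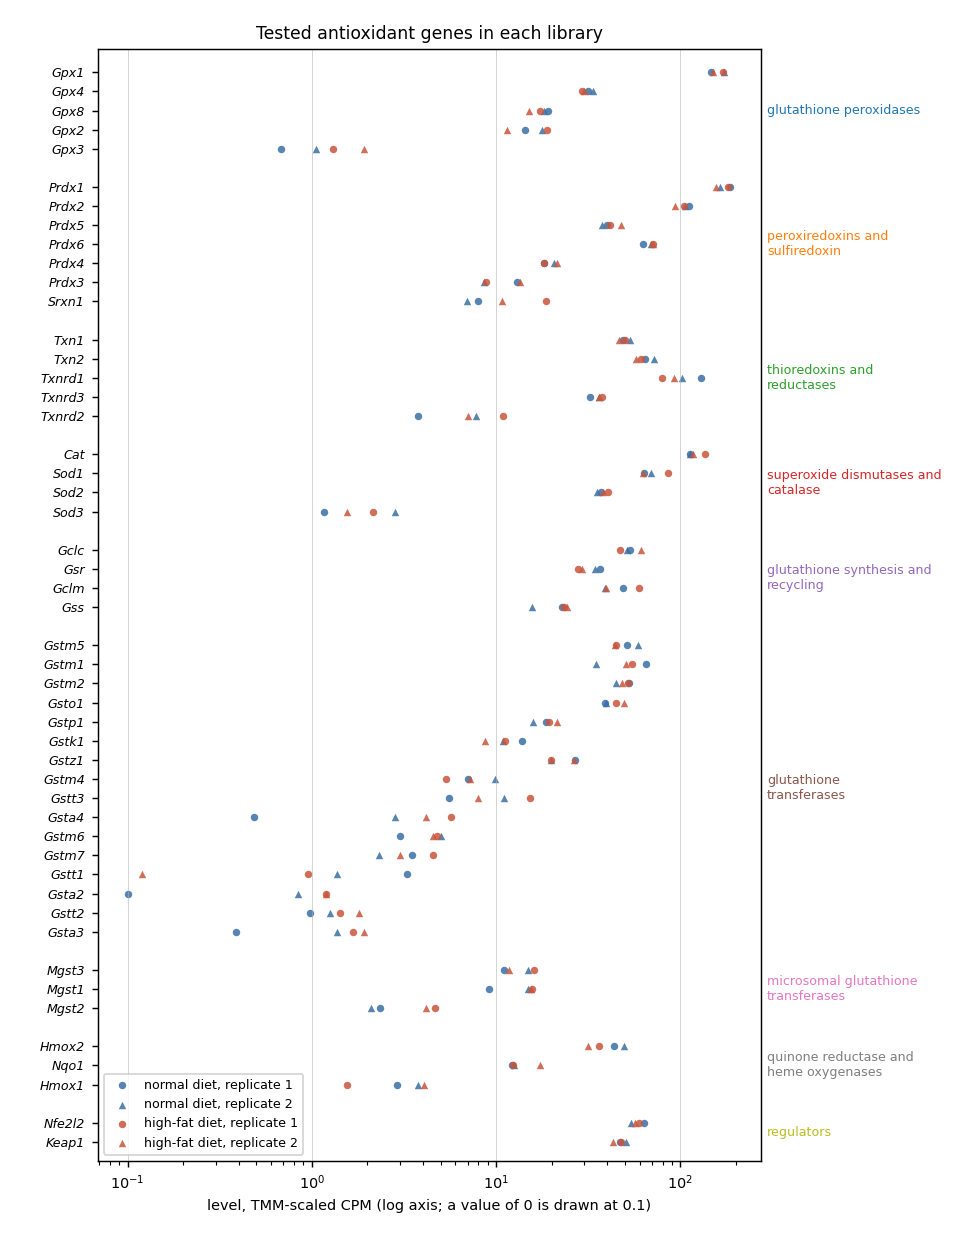
Level of each tested antioxidant gene in each of the 4 libraries as TMM-scaled CPM (log axis), grouped by class; blue points are normal diet, red points high-fat diet, circles replicate 1 and triangles replicate 2. For 24 of 49 genes (49.0%, against 44.6% of all genes tested) the diets do not overlap, among them Srxn1, Txnrd1, Hmox2 and Mgst2. Red and blue points overlap for the other genes.

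Superoxide dismutases convert superoxide to hydrogen peroxide, and catalase breaks down hydrogen peroxide in peroxisomes. Cat was the leading gene of this class at 44.8 and 44.3 FPKM against 49.95 and 43.5 FPKM. In CPM it stood at 113.1 and 113.4 against 136 and 117, so the diets overlapped in FPKM and not in CPM. The change was 0.16 ± 0.14 on the log2 scale (SE; edgeR adjusted p = 0.690). Sod1, the cytosolic copper-zinc enzyme, stood at 63.4 and 69.0 CPM against 86.0 and 62.8 CPM, and only the first high-fat diet library stood apart from the rest. Sod2, the mitochondrial manganese enzyme, had 37.0 and 35.1 CPM against 40.5 and 37.9 CPM, with a log2 fold change of 0.12 ± 0.18 (SE). Sod3, the secreted form, was between 0.32 and 0.77 FPKM. The genes of mainly mitochondrial enzymes (Prdx3, Txn2, Txnrd2 and Sod2) thus had log2 fold changes between -0.21 and 0.64, and none passed the test.

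Glutathione synthesis begins with glutamate-cysteine ligase, whose catalytic subunit is Gclc and whose modifier subunit is Gclm, and ends with the synthetase Gss. Gclc stood at 53.2 and 51.5 CPM against 46.9 and 61.0 CPM, so that the high-fat diet libraries lay on either side of the others. Its fitted log2 fold change was 0.04 ± 0.18 (SE), with an interval from -0.35 to 0.43. Gclm stood at 48.9 and 39.0 CPM against 59.3 and 39.7 CPM (log2 fold change 0.17 ± 0.22, SE). In both diets its first library was the higher one. Gss had a log2 fold change of 0.30 ± 0.25 (SE). Gsr, the reductase that recycles oxidized glutathione, lay the other way at 36.5 and 34.4 CPM against 28.0 and 29.4 CPM. Both high-fat diet values were below both normal diet values, but the log2 fold change of -0.31 ± 0.19 (SE) did not pass (edgeR adjusted p = 0.554).

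The glutathione transferases were the largest class, with 22 genes, of which 16 were tested and 0 called (edgeR), with 0 at an unadjusted p under 0.05. In FPKM, 67.6% of the class came from the mu family, whose 7 genes lie side by side on chromosome 3 between positions 107895821 and 108044894. Gstm5, the most abundant, stood at 41.4 and 47.0 FPKM against 33.5 and 33.7 FPKM. Its CPM were 51.1 and 58.8 against 44.5 and 44.2, lower in both high-fat diet libraries (log2 fold change -0.31 ± 0.17, SE; edgeR adjusted p = 0.470). Its neighbour Gstm1 differed more within the normal diet than between the diets. Gstm1 stood at 65.4 and 34.8 CPM against 54.9 and 50.9 CPM. Its log2 fold change of 0.08 ± 0.25 (SE) was 0.61 when the first normal diet library was left out and -0.31 when the second was. Gstm2 stood at 52.3 and 44.6 CPM against 52.2 and 48.4 CPM. Proteins of Gstm1 and Gstm3 are 84.4% identical and those of Gstm2 and Gstm3 80.7%, so reads could be split between these genes and each value alone is uncertain. Their summed counts had a log2 fold change of 0.07 ± 0.18 (SE). Gstm4, Gstm6 and Gstm7 were between 1.47 and 5.88 FPKM, and Gstm3 was too low to test.

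Outside the mu family, Gsto1, the omega form that also reduces dehydroascorbate, stood at 38.8 and 39.6 CPM against 44.9 and 49.5 CPM. The pi form Gstp1 stood at 18.6 and 15.9 CPM against 19.4 and 21.3 CPM, and its near-identical neighbour Gstp2 (97.1% at the protein level) had at most 3 counts in any library. Both of these genes were higher in both high-fat diet libraries, by 0.27 ± 0.17 and 0.23 ± 0.25 on the log2 scale (SE), and neither was called. The alpha form Gsta4, which conjugates the lipid peroxidation product 4-hydroxynonenal, had 5 and 27 counts against 48 and 35. Its CPM of 0.486 and 2.83 against 5.71 and 4.19 did not overlap, but the normal diet libraries were far apart. The log2 fold change of 1.58 ± 0.77 (SE; edgeR adjusted p = 0.408) ranged from 0.81 without the first normal diet library to 3.31 without the second. The suprabasal marker sum given above was lowest in the same library as Gsta4, and its part in this value was not tested. The theta form Gstt1 had 34 and 13 counts against 8 and 1, and was the 1 member with a log2 fold change under -1 (log2 fold change -2.10 ± 1.05, SE; edgeR adjusted p = 0.423). Its neighbour Gstt3 on chromosome 10 had a positive value of 0.49 ± 0.43 (SE) with overlapping diets. The alpha forms Gsta2 and Gsta3 and the theta form Gstt2 were under 1 FPKM in every library. Their log2 fold changes of 1.503 ± 1.26, 1.03 ± 0.93 and 0.53 ± 0.86 (SE) rested on 0 to 16 counts per library, and proteins of Gsta1 and Gsta2 are 95.1% identical. The mitochondrial or peroxisomal form Gstk1 and the zeta form Gstz1, which takes part in tyrosine breakdown, overlapped between diets, at -0.31 ± 0.32 and -0.013 ± 0.25 on the log2 scale (SE). Over the 16 tested transferases 11 log2 fold changes were positive, with a median of 0.22. Gsta1 and Gstt4 had no count in any library, and Gsto2, Gstp2, Gstp3 and Gstm3 had at most 23 counts over the 4 libraries.

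Microsomal transferases are membrane enzymes that act on lipid peroxides and leukotriene precursors. Mgst3 led this class at 10.4 and 13.9 FPKM against 14.1 and 10.4 FPKM, with overlapping diets. Mgst1 stood at 9.13 and 14.97 CPM against 15.6 and 15.5 CPM (log2 fold change 0.37 ± 0.31, SE). Here the first normal diet library was the one that stood apart. Mgst2 was the most evenly separated, with 24 and 20 counts against 39 and 35, or 2.33 and 2.09 CPM against 4.64 and 4.19 CPM. Its log2 fold change of 0.99 ± 0.59 (SE) lay between 0.91 and 1.07 whichever library was left out, and did not pass the test (edgeR adjusted p = 0.519).

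Heme oxygenases open the heme ring, releasing iron, carbon monoxide and biliverdin, and NQO1 reduces quinones by an electron pair. Hmox2, the constitutive form (chromosome 16, positions 4726361 to 4766742, plus strand), stood at 43.7 and 49.6 CPM against 36.2 and 31.6 CPM. Both high-fat diet values were below both normal diet values. The log2 fold change was -0.46 ± 0.18 (SE), with an interval from -0.87 to -0.06 (edgeR adjusted p = 0.301). It lay between -0.56 and -0.37 with any single library left out. Hmox1, the form induced by NRF2 and by heme, was low, with 30 and 36 counts against 13 and 34. Its diets overlapped, and its interval from -1.71 to 1.21 leaves more than 2-fold either way. Nqo1, a standard readout of NRF2 activity, stood at 12.1 and 12.5 CPM against 12.4 and 17.3 CPM. Only the second high-fat diet library was above the rest (log2 fold change 0.27 ± 0.30, SE; interval -0.37 to 0.92).

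**Figure D4:**
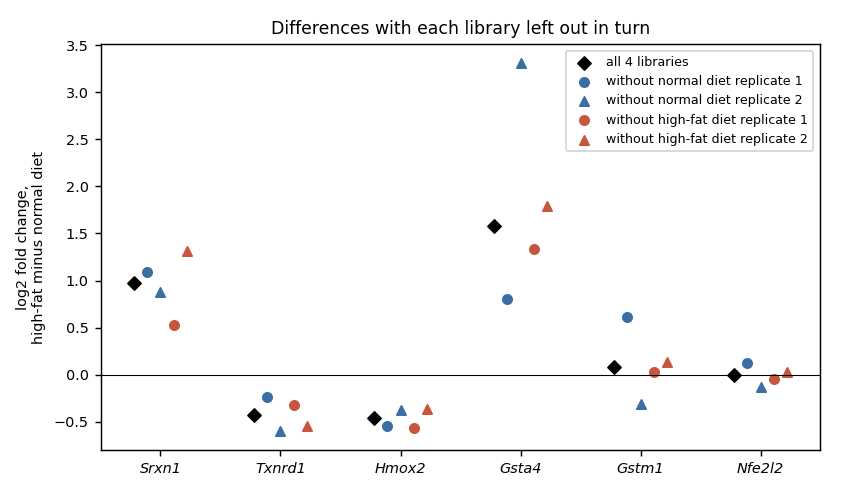
Log2 fold change (high-fat minus normal diet) of 6 members in all 4 libraries (black diamonds) and with each library left out in turn (blue, normal diet; red, high-fat diet; circle, replicate 1; triangle, replicate 2). Srxn1, Txnrd1, Hmox2 and Gsta4 keep their sign, with Gsta4 spread from 0.81 to 3.31, whereas Gstm1 and Nfe2l2 fall on both sides of 0.

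Summed by class, the deposited FPKM were led by the glutathione transferases, glutathione peroxidases and peroxiredoxins. The transferases summed to 169.5 ± 16.2 FPKM with the normal diet and 162.1 ± 2.68 FPKM after high-fat feeding (SD, n = 2). The peroxidases summed to 156.7 ± 12 and 145.2 ± 11.7 FPKM, and the peroxiredoxins with sulfiredoxin to 148.5 ± 9.82 and 140.8 ± 3.13 FPKM. In these classes the libraries of the diets overlapped. Over all 58 genes the sum was 753.0 ± 9.89 against 707.7 ± 28.8 FPKM, lower in both high-fat diet libraries. The deposited FPKM are scaled by the total count alone, and TMM factors lay between 0.965 and 0.976 with the high-fat diet and between 1.02 and 1.04 with the normal diet. Divided by these factors, the total was 730.8 ± 1.53 against 729.3 ± 35.9 FPKM, a ratio of 0.998, and the diets overlapped.

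On that TMM-scaled FPKM, libraries of the diets were apart for the thioredoxins with their reductases and for NQO1 with the heme oxygenases. The first class summed to 92.3 and 96.3 against 89.0 and 84.8, and the second to 29.1 and 32.5 against 25.1 and 27.6. Without Hmox2 the second class had a deposited FPKM sum on the other side, with a log2 ratio of 0.10. With 2 libraries against 2 an exact permutation test cannot go below p = 0.333, so no test of these sums was made.

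**Figure D5:**
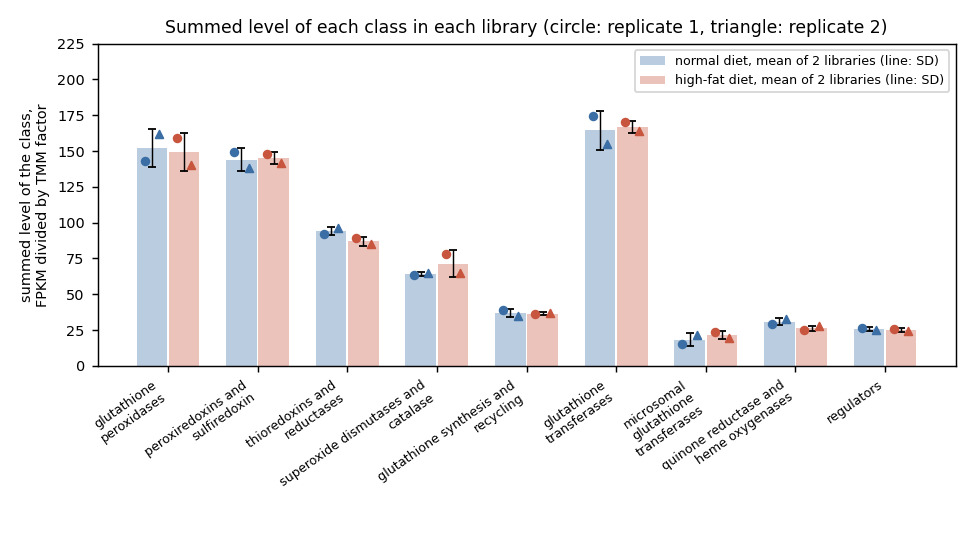
Summed level of each class (FPKM divided by the library's TMM factor) with the mean of each diet as bars from 0, the SD of 2 libraries as lines and each library as a point. The bars of the diets are close for the largest classes; points are apart for thioredoxins and reductases and for quinone reductase and heme oxygenases.

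A wider list of 105 genes of the pathway that are not members, of which 104 were found in the table, was written from general knowledge, covering NRF2 partners, cysteine and glutamate supply, glutathione turnover, NADPH supply, glutaredoxins, detoxification and export, iron handling and selenoprotein synthesis. Of 98 tested, 0 were called higher and 0 lower (edgeR, adjusted p under 0.05; background 1.12% and 0.228%), and 18 (18.4%) had an unadjusted p under 0.05 against 13.3% of all genes tested. The median log2 fold change was 0.06. Other settings called some of the list, all higher but 1: 1 with upper-quartile scaling (background 1.44%), 3 with DESeq2 (2.33%), 4 with at least 10 counts in every library (2.25%), 6 at an adjusted p under 0.1 (2.63%), 7 with replicate numbers as a block (2.89%) and 8 without a filter on low counts (2.55%). The members had 0 calls under each of these settings. The 5 smallest p-values belonged to Ggct, Abcc5, Hpgds, Abcc4 and Hagh, all with positive log2 fold changes.

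Ggct, which processes gamma-glutamyl dipeptides made from glutathione, stood closest to the threshold. It had 33.5 and 32.2 CPM against 55.2 and 57.2 CPM. The groups were tight and well apart, with a log2 fold change of 0.77 ± 0.17 (SE; edgeR adjusted p = 0.051). Abcc5 and Abcc4, transporters that export organic anions including conjugates, stood at 89.5 and 83.0 against 122 and 141 CPM and at 9.52 and 6.07 against 15.7 and 22.7 CPM. Their log2 fold changes were 0.61 ± 0.14 and 1.30 ± 0.33 (SE; edgeR adjusted p = 0.063 and 0.096). Hagh, the glyoxalase that releases glutathione from its lactoyl ester, stood at 5.63 and 8.37 against 15.3 and 18.3 CPM (adjusted p = 0.098).

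Hpgds, the sigma-class glutathione transferase that makes prostaglandin D2, has a symbol outside the family's naming pattern and so is not a member. It stood at 2.33 and 1.88 CPM against 9.28 and 7.53 CPM, a log2 fold change of 1.99 ± 0.48 (SE; edgeR adjusted p = 0.079). The gene is also expressed by mast cells and other immune cells. The sum of 6 immune markers was 16.9 and 36.1 CPM against 40.8 and 49.15 CPM, and 0 of 5 tested were called (edgeR). Trdc had no count in the first normal diet library and Lyz2 none in the first high-fat diet library, and the part of this sum in the value of Hpgds was not tested.

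On the supply side, the cystine importer gene Slc7a11, an NRF2 target, was too low to test, with 4 and 3 counts against 8 and 13. G6pdx, the first enzyme of NADPH production in the pentose phosphate pathway, stood at 42.3 and 24.9 CPM against 30.9 and 37.4 CPM. The high-fat diet values lay between those of the normal diet, with a log2 fold change of 0.02 ± 0.25 (SE).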

How the data were processed

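The deposited table gives, for each gene and each of 4 RNA-seq libraries, a count of reads and the FPKM that the authors derived. RNA had been isolated with RNeasy columns, per the labels' protocols. The submitters' processing notes list HISAT2 (2.0.1), cutadapt (1.9.1) and bcl2fastq (2.17.1.14), with no role stated. The counter, the strand setting and the build were not named there. All 58 members have the position that a GENCODE GRCm38 annotation gives them. All 221604 deposited FPKM values equalled count over exonic size and column total within 0.005.

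Deposited counts were tested in R 4.3.3 with edgeR 4.0.16 (TMM, quasi-likelihood, default filter of about 10 counts in at least 2 libraries and 15 in total, no replicate term). P-values were adjusted by Benjamini-Hochberg over all 14479 genes tested. Standard errors are the log2 fold change over the square root of F, and 95% intervals use the test's total degrees of freedom. DESeq2 1.42.0 and limma 3.58.1 on log2(FPKM + 1) were alternatives, and the fits were tested on simulated counts. Protein identities are the highest between translated GENCODE transcripts.

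The members, classes and lists were chosen with earlier results of these data known. Values per library were given for the 3 members of each class with the highest mean FPKM, for members whose diets did not overlap with an absolute log2 fold change of at least 0.5 and a mean FPKM of at least 1, for 8 NRF2 pathway genes, and for the 5 genes of smallest p in the wider list with Slc7a11 and G6pdx. Gsto1, Gstp1, Gstt1, Gstt3, Gsta2, Gsta3, Gstt2, Gstk1, Gstz1, Gss, Txnrd2 and Txnrd3, and in the closing section Anpep, Mt2 and Lap3, were named after their values were seen.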

Additional observations from a re-analysis of the deposited data

How the results depend on the processing

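No member was called under any alternative run: 3 other scalings, 2 other filters, DESeq2, limma with pseudocounts of 1 and 0.1, the replicate block, removal of ribosomal, mitochondrial and small RNAs, summed paralogs, a threshold of 0.1, and each library left out. These counts say little where few genes were called at all, as with limma and without either normal diet library. With a library left out, the lone library of its diet is assumed to vary like the other diet's pair. The smallest adjusted p among members ranged from 0.144 (no filter) to 0.559. In the wider list 0 genes were called higher by edgeR, against 1 with upper-quartile scaling (Ggct), 3 with DESeq2 (Abcc5, Anpep, Ggct), 4 with at least 10 counts in every library (those and Hpgds), 6 at a threshold of 0.1, 7 with no filter and 7 with the replicate block (those 4, Abcc4, Hagh and Mt2); 1 was called lower with no filter (Lap3). Over all genes these settings called 209, 353, 285, 381, 633 and 419, against 195. Equal TPM sums called 88 higher and 3 lower, limma 1 higher. With 1 library left out, calls ranged from 0 (without the first normal diet library) and 3 higher (without the second) to 81 higher and 2 lower (without the first high-fat diet library). Same-numbered libraries did not deviate together (r = -0.04 across 10985 genes), so the numbers were not treated as pairs.

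The median of the members (0.08) was -0.024 with equal TPM sums, -0.035 and -0.038 with limma (pseudocounts 1 and 0.1), and 0.04 to 0.11 with 1 library left out; these scalings moved the median of all genes by -0.07, -0.08 and -0.09. Under the same 3 settings the log2 fold change was -0.052, -0.0706 and -0.0712 for Gpx1, -0.024, -0.052 and -0.056 for Gclc and -0.0276, -0.0278 and -0.0285 for Gstm2, while Gstm1 was -0.027 with equal TPM sums. Gpx1 was -0.0035 with DESeq2. Nfe2l2 was 0.019 with upper-quartile scaling and 0.0043 with at least 10 counts in every library. Of 415 values of named members under alternatives, 28 changed sign, 15 of them with a library left out. Those ranges were -0.091 to 0.13 (Gpx1), -0.17 to 0.036 (Prdx1), -0.076 to 0.38 (Sod1), -0.16 to 0.22 (Gclc), -0.15 to 0.43 (Gclm), -0.31 to 0.61 (Gstm1), -0.059 to 0.18 (Gstm2), -0.15 to 0.34 (Mgst3), -1.10 to 0.28 (Hmox1) and -0.13 to 0.13 (Nfe2l2).

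As log2 ratios of class sums (high-fat over normal diet), CPM in place of FPKM gave 0.0066 for peroxiredoxins, 0.0455 for glutathione synthesis, 0.0502 for transferases and -0.052 for regulators. FPKM divided by the TMM factor, a setting chosen after seeing the data, gave 0.011 for peroxiredoxins, 0.022 for transferases (-0.065 in FPKM), -0.024 for peroxidases (-0.11), -0.016 for glutathione synthesis (-0.10), -0.12 for thioredoxins and -0.047 for regulators. Without the most abundant gene the ratio was -0.25 for thioredoxins, 0.036 for transferases and 0.10 for quinone reductase and heme oxygenases. With 1 library left out it ranged from -0.066 to 0.19 for superoxide dismutases and catalase, from -0.16 to 0.036 for transferases and from -0.080 (without the first normal diet library) to 0.41 (without the second) for microsomal transferases. The cause of these shifts was not tested.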
